A study of Mus musculus with 9 samples.

Results

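The 45 genes described here encode the smooth muscle and contractile cytoskeleton: actins, calponins, transgelins, tropomyosins, myosin chains, filamins, LIM proteins, intermediate filament proteins, the transcription factors Srf and Myocd, and actin proteins of the cell cortex. They were taken by symbol from a list of names drawn up with earlier results of these arrays known, so that their directions are not independent evidence. All 45 had a row in the expression table, and 44 were tested among 17995 genes, since Vil1, which encodes the microvillus bundling protein villin, had the same value on all 9 arrays. Expression was measured on Affymetrix Mouse Gene ST arrays in HC11, a clonal mammary epithelial line from Balb/c mice. The 3 groups were 3 arrays each of HC11 cells carrying a FoxF1 construct, HC11 cells carrying an NFI-C2 construct, and wild type HC11 cells, which the methods call vector control. Both constructs encode transcription factors, a forkhead protein in the case of FoxF1 and a form of nuclear factor I-C in that of NFI-C2. All 3 groups were kept in the same medium with serum, insulin and EGF. Each array held RNA of a separately grown and harvested culture. The methods speak of pools, and separate transfection of each pool is not given in the sources used here.

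The genes of the transfected factors were checked first. Foxf1a, the symbol under which the annotation lists FoxF1, lay between 0.09 and 0.32 on the FoxF1 arrays and between -0.07 and 0.01 on the wild type arrays, and its difference of 0.20 ± 0.14 did not pass the test (SE, adjusted p = 0.35). On the NFI-C2 arrays Foxf1a was lower, between -1.46 and -0.91. Nfic lay between 0.00 and 0.19 on the NFI-C2 arrays and between 0.00 and 0.21 on the wild type arrays (difference -0.04 ± 0.072, adjusted p = 0.758). Neither gene was thus called higher in the line that carries its name, and whether the probes lie in the transfected sequences is not known from the sources used here. FoxF1 cells and NFI-C2 cells below mean the arrays with those labels, and every direction given rests on the labels.

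Smooth muscle cells contract when myosin, whose light chain is phosphorylated by myosin light chain kinase, pulls on filaments of alpha and gamma smooth muscle actin, with calponin, caldesmon and tropomyosin bound along the filament. Many genes of this apparatus are known targets of serum response factor (Srf), which binds a short AT-rich element called the CArG box together with cofactors of the myocardin family, whose MRTF members are released into the nucleus when actin polymerizes. In the mammary gland the basal myoepithelial cells carry the smooth muscle genes and squeeze milk from the alveoli, while epithelial cells undergoing a mesenchymal transition and activated fibroblasts can also take them on. Ezrin, villin and several myosins serve instead the apical cortex and the membrane traffic of polarized epithelial cells.

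The CArG box is the element these genes are known for. The 250 bases before each RefSeq transcript start (GRCm38.p6) were therefore searched for its strict form, CCWWWWWWGG with W for A or T, on both strands. Variants with a G or C between the outer pairs were not counted, so a gene without a match here may hold such a variant. A window was found for 38 of the 45 genes, and 10 of these (26.3%) held a CArG box, against 1.62% of 27025 mouse genes. The 7 others, Actb, Actg2, Tagln, Myh11, Myo5b, Csrp2 and Myocd, are named only. The 10 with a box were Acta1, Actc1, Actg1, Cnn2, Fhl1, Fhl2, Myl6, Myl9, Srf and Vil1. The windows below belong to 3 genes that were higher in FoxF1 cells and to 2 muscle actin genes that were called in no comparison, with the CArG box in capitals.
Fhl1, chrX:56779433-56779682, plus strand: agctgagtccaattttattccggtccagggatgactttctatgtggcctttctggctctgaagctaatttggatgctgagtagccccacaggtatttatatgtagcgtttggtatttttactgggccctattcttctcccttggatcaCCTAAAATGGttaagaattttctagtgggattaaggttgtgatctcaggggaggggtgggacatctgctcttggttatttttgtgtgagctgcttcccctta
Srf, chr17:46556163-46556412, minus strand: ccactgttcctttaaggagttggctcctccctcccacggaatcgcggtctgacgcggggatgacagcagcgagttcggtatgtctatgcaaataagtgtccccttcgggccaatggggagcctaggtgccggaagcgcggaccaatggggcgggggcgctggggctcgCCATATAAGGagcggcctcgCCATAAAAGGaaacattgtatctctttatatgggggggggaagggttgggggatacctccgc
Fhl2, chr1:43163962-43164211, minus strand: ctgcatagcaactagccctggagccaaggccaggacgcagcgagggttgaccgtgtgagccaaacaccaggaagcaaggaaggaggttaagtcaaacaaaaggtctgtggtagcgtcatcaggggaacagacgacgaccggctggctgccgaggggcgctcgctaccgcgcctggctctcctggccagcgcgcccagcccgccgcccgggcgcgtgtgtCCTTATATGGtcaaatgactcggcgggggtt
Acta1, chr8:123894776-123895025, minus strand: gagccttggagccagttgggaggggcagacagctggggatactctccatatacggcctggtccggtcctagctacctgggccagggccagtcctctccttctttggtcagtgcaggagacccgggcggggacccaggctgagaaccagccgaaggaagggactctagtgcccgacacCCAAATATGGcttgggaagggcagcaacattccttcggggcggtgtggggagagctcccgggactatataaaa
Actc1, chr2:114052876-114053125, minus strand: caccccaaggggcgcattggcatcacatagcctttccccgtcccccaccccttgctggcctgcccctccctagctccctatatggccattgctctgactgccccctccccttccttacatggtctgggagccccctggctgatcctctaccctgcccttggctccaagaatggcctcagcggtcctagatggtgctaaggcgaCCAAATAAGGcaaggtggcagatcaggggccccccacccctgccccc
The box began 102 bases before the start in this window of Fhl1, 31 in this window of Fhl2, 73 in Acta1 and 47 in Actc1. Srf held 2 boxes, at 82 and 62 bases. The other Fhl1 window held no box, and the other Fhl2 window held a box at 96 bases. Of the 10 genes with a box, Cnn2, Fhl1, Fhl2, Myl6 and Srf were called higher in FoxF1 cells, Actg1 was called lower, Acta1, Actc1 and Myl9 were not called, and Vil1 was not tested. Of all 44 genes tested, with or without a box, 47.7% were called higher and 22.7% lower, against 21.1% and 19.4% of all genes on the arrays. Nothing is read from the calls of the genes with a box. No test was made of the box.

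The forkhead core TAAACA, on either strand, stood in the windows of 4 of the 38 genes (10.53%), Acta2, Cald1, Myh9 and Rdx, against 13.54% of all genes with a window. The palindromic nuclear factor I site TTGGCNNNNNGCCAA stood in none of the 38 and in 12 genes of the 27025 (0.04%). No gene of the 38 held both a CArG box of the strict form and a forkhead core. The Acta2 window does hold ccctatatgg and ccttgtttgg, each of which departs from that form by a single letter and was not counted. The windows of Acta2 and Cald1, the pair with the larger changes, follow with the core in capitals, read as TGTTTA where it lies on the other strand.
Acta2, chr19:34255374-34255623, minus strand: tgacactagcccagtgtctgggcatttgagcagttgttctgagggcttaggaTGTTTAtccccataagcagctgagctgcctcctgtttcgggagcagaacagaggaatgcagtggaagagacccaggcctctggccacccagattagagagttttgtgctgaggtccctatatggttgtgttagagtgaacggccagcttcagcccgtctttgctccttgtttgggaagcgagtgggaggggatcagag
Cald1, chr6:34598254-34598503, plus strand: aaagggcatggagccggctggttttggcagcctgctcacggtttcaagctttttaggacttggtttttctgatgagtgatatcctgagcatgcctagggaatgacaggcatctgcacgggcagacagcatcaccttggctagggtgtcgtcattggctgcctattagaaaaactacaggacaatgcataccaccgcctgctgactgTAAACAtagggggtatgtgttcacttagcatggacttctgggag
The core began 198 bases before the start in Acta2 and 44 in this window of Cald1, while the other Cald1 window held none. A match of letters is not a bound site, and binding was not measured.

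All values below are log2 expression minus the median of the 9 arrays for that gene, as deposited. A value of 1 thus means a level 2-fold above the middle array, and the level itself is not in the data, so genes cannot be ranked by abundance. A gene was called when its adjusted p from limma was under 0.05 over all 17995 genes. Differences are of group means of 3 arrays each. Their standard error is the moderated one of the fit, pooled over all 3 groups, so each gene has the same error in every comparison. It is not the spread of the groups compared alone. For Actg2 the standard deviation was 0.319 in FoxF1, 0.033 in NFI-C2 and 0.072 in wild type arrays, and all 3 enter its error. In FoxF1 cells against wild type cells, 21 of the 44 genes were called higher, 10 lower and 13 neither, while 21.1% of all genes were called higher and 19.4% lower. As shares, 47.7% of the 44 were higher and 22.7% lower, the latter near the share over all genes. With a change of at least 1.5-fold as well, 9 were higher and 5 lower, against 7.31% and 9.25% of all genes. In NFI-C2 cells against the same wild type arrays, 1 gene was called higher, 15 lower and 28 neither, against 9.18% and 12.8% of all genes. With 1.5-fold, none was higher and 4 were lower, where 2.4% and 2.81% of all genes were.

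The size of a change depended on whether the deposited values were also quantile normalized. On the deposited scale the standard deviation over all clusters was 0.528 to 0.539 for FoxF1 arrays, against 0.211 to 0.243 for NFI-C2 and 0.174 to 0.183 for wild type. Since each gene is centred on its median, a group that differs more from the other arrays has a wider spread. Equalizing the spread thus tends to shrink FoxF1 differences and enlarge NFI-C2 differences, even where the arrays do not differ in scaling. A difference in scaling and a difference in expression were not told apart here. Quantile normalization, which gives all arrays the same spread, left 15 of the 44 genes higher in FoxF1 cells (34.1%, against 14.4% of all genes) and 10 lower (22.7%, against 16.9%). In NFI-C2 cells it gave 1 higher (2.27%, a smaller share than over all genes) and 14 lower (31.8%, against 15.2% of all genes). Under this scaling the log2 difference moved by over 1.5 times in 11 of 19 genes given in full below and called in FoxF1 cells. In NFI-C2 cells it did so in 6 of 8, both against wild type. The values so counted are given beside each gene. Folds not counted by this rule shrank too in FoxF1 cells. There Fhl1 rose 13.4-fold in place of 29.3-fold, Actg2 4.39-fold in place of 7.57-fold and Vim 3.3-fold in place of 5.42-fold. Myo5b fell 5.73-fold in place of 12.7-fold.

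Because both comparisons share the wild type arrays, the transfected lines were also compared directly. There 24 of the 44 genes were higher in FoxF1 cells, 11 lower and 9 neither, against 23.9% and 19.8% of all genes, and with 1.5-fold 10 were higher and 5 lower, against 9.47% and 9.86%. The median difference of the 44 genes was 0.10 for FoxF1 against wild type, -0.075 for NFI-C2 against wild type and 0.20 for FoxF1 against NFI-C2, with medians of 0.009, 0.001 and 0.001 over all genes. The FoxF1 arrays did not overlap the wild type arrays for 21 genes upwards and 10 downwards, where 46.5% of all genes did not overlap in either direction. NFI-C2 and wild type arrays were apart for 4 genes upwards and 19 downwards, where 33.5% of all genes were.

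**Figure D1:**
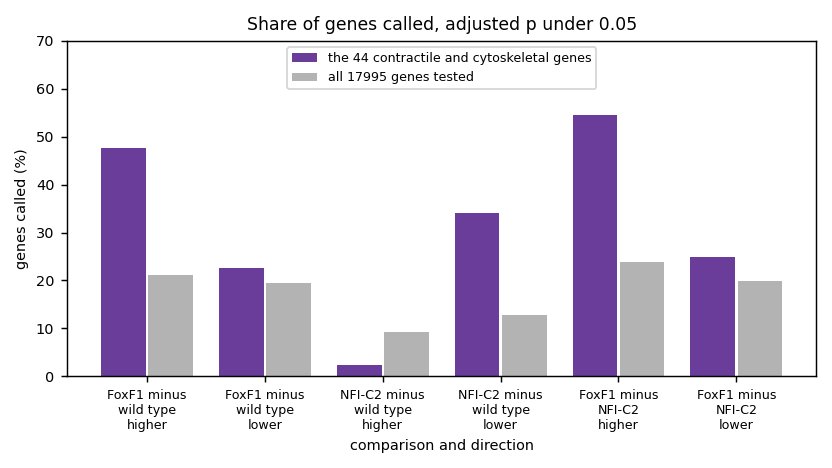
Percentage of genes called (y axis, adjusted p under 0.05) in each comparison and direction (x axis), for the 44 contractile and cytoskeletal genes (purple) and for all 17995 genes tested (grey). The 44 genes were called higher in FoxF1 cells in 47.7% of cases against 21.1% of all genes, and lower in NFI-C2 cells in 34.1% against 12.8%.

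**Figure D2:**
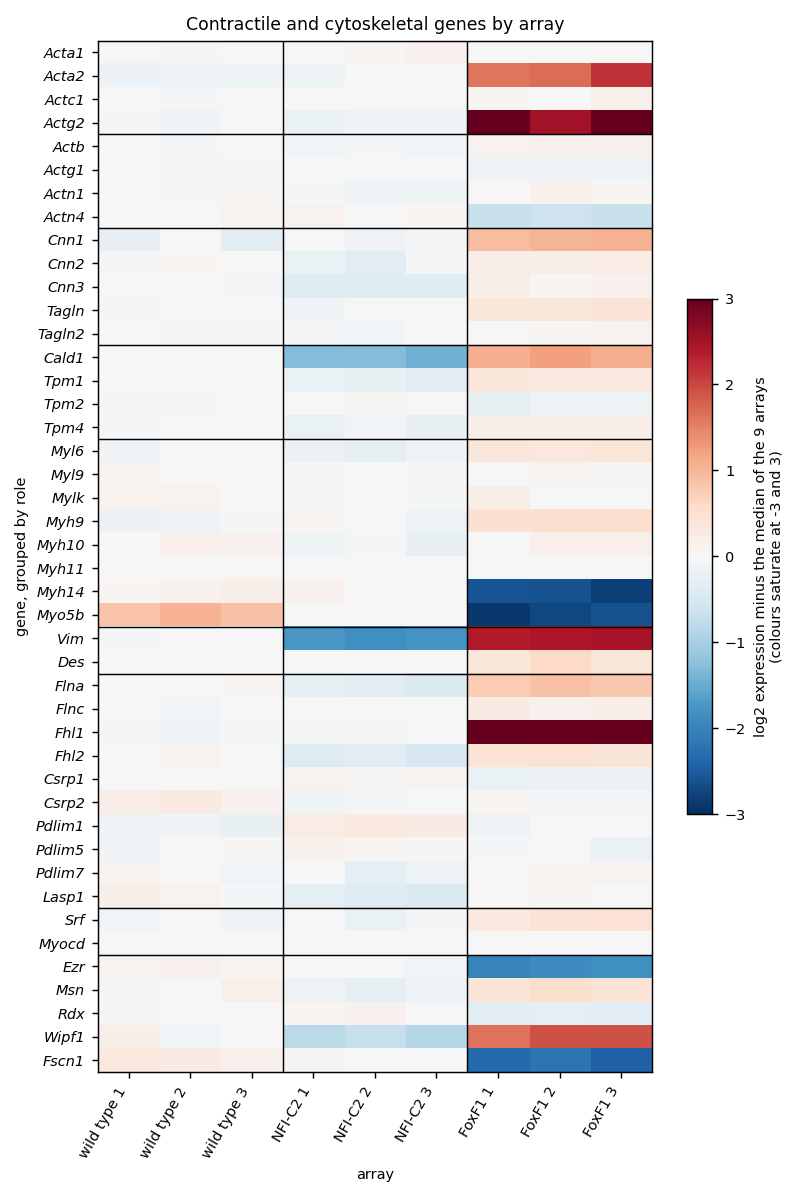
Values of the 44 genes (rows, in blocks by role in the order of the text) on the 9 arrays (columns), as log2 expression minus the median of the 9 arrays, in red above and in blue below, with colours saturating at -3 and 3. The strongest colours lie in the FoxF1 columns, red for Fhl1, Actg2 and Vim and blue for Myo5b, Myh14 and Fscn1, while Vim and Cald1 are blue in the NFI-C2 columns.

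Of the 4 muscle-type actins, both smooth muscle isoforms were higher in FoxF1 cells and neither striated isoform was called. Over all genes 21.1% were called higher and 19.4% lower there. Each role holds few genes, so the counts by role here and below are not read as results about a role. Acta2, alpha smooth muscle actin and the most used marker of myofibroblasts and myoepithelium, had values of 1.61, 1.67 and 2.16 on the FoxF1 arrays, -0.15, 0.00 and 0.00 on the NFI-C2 arrays and -0.17, -0.13 and -0.13 on the wild type arrays. Every FoxF1 array lay far above the other 6, although FoxF1 array 3 was itself well above arrays 1 and 2. Its difference from wild type was 1.96 ± 0.14 (SE, adjusted p = 1.4e-05), a level 3.88-fold as high. In NFI-C2 cells the difference was 0.09 ± 0.14 (SE, adjusted p = 0.715). Actg2, the gamma actin of visceral smooth muscle, had values of 3.01, 2.53 and 3.14 on the FoxF1 arrays, -0.19, -0.13 and -0.13 on the NFI-C2 arrays and 0.03, -0.11 and 0.00 on the wild type arrays. The FoxF1 arrays again stood clear of all others, with a difference of 2.92 ± 0.14 (SE, adjusted p = 1.9e-06) and a 7.57-fold level. The NFI-C2 arrays lay slightly below the wild type arrays without a call (-0.12 ± 0.14 SE, adjusted p = 0.629). Acta1 and Actc1, the skeletal and cardiac alpha actins, differed by 0.01 and 0.09 in FoxF1 cells (adjusted p = 0.864 and 0.0985), and all their arrays lay between -0.07 and 0.15. The transcript clusters of Acta2 and Actg2 are annotated as free of cross-hybridization, which matters for actin genes because their coding sequences are close to each other.

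The cytoplasmic actins moved little and in opposite directions. Actb, beta actin, was 0.13 higher in FoxF1 cells (adjusted p = 0.00116) and differed by -0.07 in NFI-C2 cells (adjusted p = 0.0412). Actg1, gamma cytoplasmic actin, differed by -0.16 in FoxF1 cells (adjusted p = 5.0e-05). Actg1 has 4 clusters on 4 chromosomes, all marked for cross-hybridization, and their FoxF1 differences ran from -0.16 to -0.12. The alpha-actinins, which crosslink actin filaments, split. Actn4, the isoform of stress fibres and cell edges, had values of -0.66, -0.62 and -0.67 on the FoxF1 arrays, 0.10, 0.02 and 0.05 on the NFI-C2 arrays and 0.00, -0.01 and 0.09 on the wild type arrays. Its FoxF1 arrays lay below all others, a 1.6-fold lower level (-0.68 ± 0.033 SE, adjusted p = 1.9e-06), while NFI-C2 and wild type arrays overlapped (0.03, adjusted p = 0.594). With quantile normalization the Actn4 difference was -0.41, or 1.33-fold lower, and on the deposited scale it did not pass a test against 1.5-fold (adjusted p = 0.108). Actn1 was not called against wild type in either line, and was 0.17 higher in FoxF1 than in NFI-C2 cells (adjusted p = 0.0145).

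Among the calponins and transgelins, thin filament proteins of smooth muscle, 4 of 5 were higher in FoxF1 cells, where 21.1% of all genes were. Cnn1, the calponin of differentiated smooth muscle that slows the myosin ATPase, had values of 0.93, 1.01 and 1.04 on the FoxF1 arrays, 0.00, -0.10 and -0.05 on the NFI-C2 arrays and -0.24, 0.01 and -0.32 on the wild type arrays. The FoxF1 arrays were tightly grouped, about 1 log2 unit above the rest, while the wild type arrays varied more than in most of the genes. The difference was 1.18 ± 0.082 (SE, adjusted p = 1.4e-05), or 2.27-fold. In NFI-C2 cells Cnn1 was not called (0.14, adjusted p = 0.332), but without wild type array 2, the highest of its group, it was called higher (0.23, adjusted p = 0.021). Tagln, the early smooth muscle marker SM22 alpha, had values of 0.35, 0.37 and 0.39 on the FoxF1 arrays, -0.14, -0.01 and -0.01 on the NFI-C2 arrays and 0.03, -0.01 and 0.00 on the wild type arrays. Its rise was small beside its actin partners, 0.36 ± 0.035 (SE, adjusted p = 9.6e-05) or 1.29-fold, with no overlap between FoxF1 arrays and any other, and 0.21 with quantile normalization (adjusted p = 0.0126). Cnn2 and Cnn3, the calponins of nonmuscle cells, were higher in FoxF1 cells by 0.20 and 0.12 (adjusted p = 0.0393 and 0.0167). Cnn3 was lower in NFI-C2 cells (-0.36, adjusted p = 2.3e-04), where Cnn2 had -0.18 without a call. The Cnn3 cluster is marked for cross-hybridization. Tagln2 was called in no comparison.

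**Figure D3:**
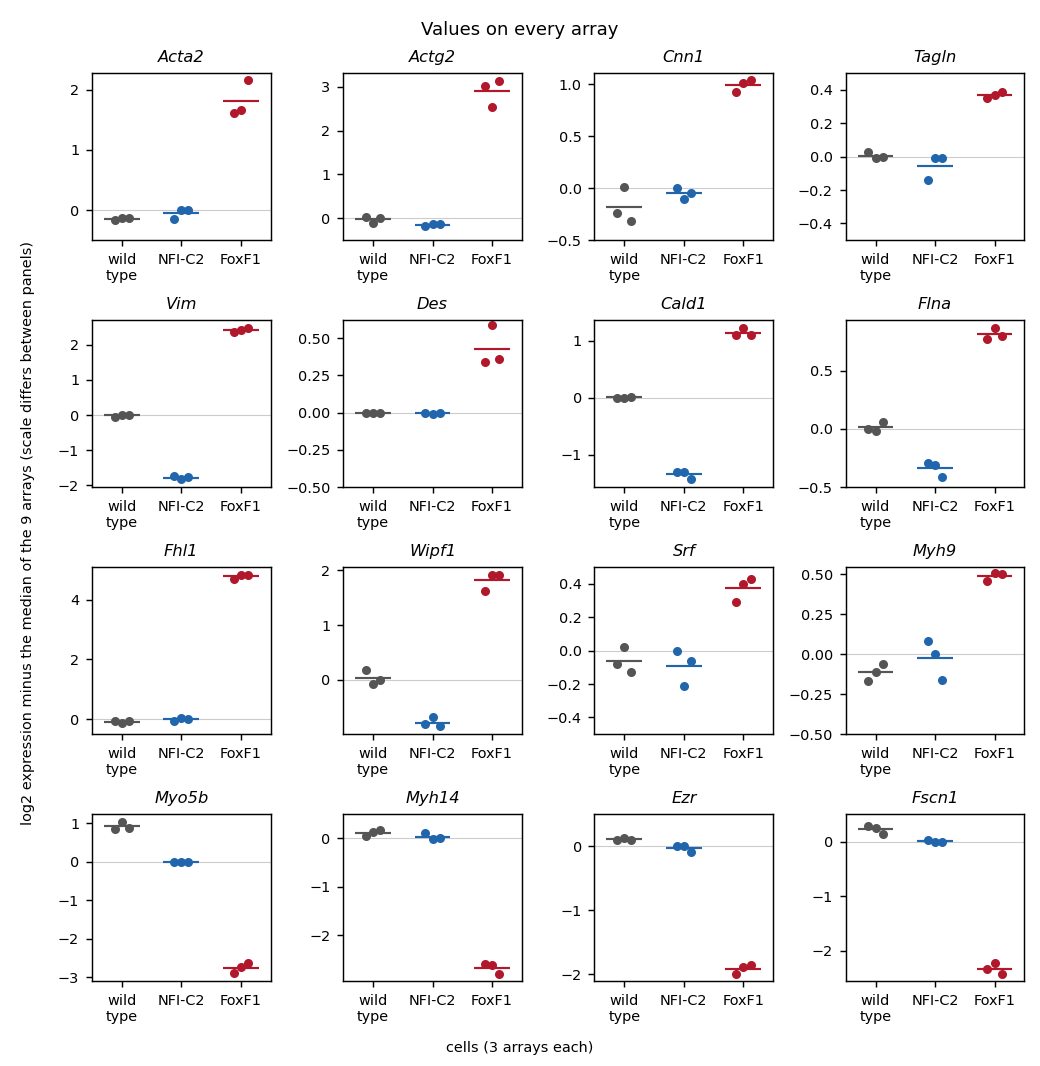
Values on every array for 16 of the genes (one panel each), as log2 expression minus the median of the 9 arrays (y axis, own scale per panel, grey line at 0), for wild type, NFI-C2 and FoxF1 cells (x axis), with points for the 3 arrays and a line for their mean. The FoxF1 points lie above all others in the first 12 panels and below all others in Myo5b, Myh14, Ezr and Fscn1. NFI-C2 points lie below wild type points in Vim, Cald1, Flna, Wipf1, Actg2, Myo5b, Ezr and Fscn1, and above them in Fhl1.

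Caldesmon and the tropomyosins, which lie along the actin filament and control the access of myosin, moved in both lines. Cald1, caldesmon, had values of 1.10, 1.23 and 1.10 on the FoxF1 arrays, -1.30, -1.31 and -1.44 on the NFI-C2 arrays and 0.00, 0.00 and 0.02 on the wild type arrays. The 3 groups formed 3 separate clusters, with FoxF1 arrays above and NFI-C2 arrays below the wild type arrays, each by more than 1 log2 unit. Cald1 was 2.2-fold higher in FoxF1 cells (1.14 ± 0.047 SE, adjusted p = 8.9e-07) and 2.56-fold lower in NFI-C2 cells (-1.36 ± 0.047 SE, adjusted p = 3.2e-06). The direct difference between both lines was 2.50 ± 0.047 (SE, adjusted p = 1.5e-08), a ratio of 5.64. With quantile normalization Cald1 differed by 0.69 (1.62-fold higher) in FoxF1 cells and -2.59 (6.02-fold lower) in NFI-C2 cells. Tpm1 differed by 0.31 in FoxF1 cells and -0.25 in NFI-C2 cells, and Tpm4 by 0.19 and -0.15, all 4 called (adjusted p between 0.00011 and 0.0167). The Tpm4 row lies on chromosome 17, away from the gene on chromosome 8, and the smaller cluster at the gene gave 0.28 and -0.23 with the same calls. Tpm2, the beta tropomyosin, was lower in FoxF1 cells instead (-0.20, adjusted p = 0.00269), with -0.01 in NFI-C2 cells.

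The myosins did not move together. Myh11, the myosin heavy chain that defines mature smooth muscle, lay between 0.00 and 0.02 on all 9 arrays, 6 of them tied at the lowest value, and no change was detected in either line (FoxF1 difference 0.00, adjusted p = 1). Myh9, the heavy chain of nonmuscle myosin IIA, had values of 0.46, 0.51 and 0.50 on the FoxF1 arrays, 0.08, 0.00 and -0.16 on the NFI-C2 arrays and -0.17, -0.11 and -0.06 on the wild type arrays. FoxF1 arrays lay above all others, while NFI-C2 and wild type arrays overlapped. The Myh9 level in FoxF1 cells was 1.52-fold that of wild type cells (0.60 ± 0.059 SE, adjusted p = 9.7e-05), just over the 1.5-fold line. It did not pass a test against 1.5-fold, and with quantile normalization it was 1.44-fold (0.52). Myh14, the heavy chain of nonmuscle myosin IIC, had values of -2.59, -2.62 and -2.80 on the FoxF1 arrays, 0.12, -0.01 and 0.00 on the NFI-C2 arrays and 0.06, 0.13 and 0.17 on the wild type arrays. FoxF1 arrays lay more than 2 log2 units under every other array, a 6.89-fold lower level (-2.78 ± 0.063 SE, adjusted p = 3.9e-08), with -0.08 in NFI-C2 cells (adjusted p = 0.477). With quantile normalization the fall in FoxF1 cells was -1.45, or 2.73-fold. Myh10, nonmuscle IIB, had 0.01 in FoxF1 and -0.23 in NFI-C2 cells, neither called (adjusted p = 0.979 and 0.0529).

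Myo5b, an unconventional myosin that carries recycling endosomes to the apical membrane, had values of -2.90, -2.73 and -2.62 on the FoxF1 arrays, 0.00, 0.00 and 0.00 on the NFI-C2 arrays and 0.86, 1.04 and 0.87 on the wild type arrays. The groups formed 3 levels, with wild type highest, NFI-C2 below and FoxF1 lowest. It was 12.7-fold lower in FoxF1 cells (-3.67 ± 0.074 SE, adjusted p = 2.3e-08), the largest fall among the 44 genes, and 1.9-fold lower in NFI-C2 cells (-0.92 ± 0.074 SE, adjusted p = 1.4e-04). The 3 NFI-C2 arrays were equal within 1e-06, as were the wild type arrays of Des below, which lowers the spread that enters these errors. Myl9, the regulatory light chain of smooth muscle, and Mylk, its kinase, were called in no comparison. Their FoxF1 differences were 0.00 (95% interval -0.10 to 0.10) and -0.02 (95% interval -0.15 to 0.11). Myl6, the essential light chain of smooth and nonmuscle myosin, was higher in FoxF1 cells by 0.38 (adjusted p = 4.8e-04) and differed by -0.17 in NFI-C2 cells (adjusted p = 0.0444). Its row lies on chromosome 9 and the gene on chromosome 10, where the gene's own cluster gave 0.35 (adjusted p = 0.00149) and -0.17 (adjusted p = 0.0805), so that the NFI-C2 call was lost.

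Both intermediate filament genes were higher in FoxF1 cells, where 21.1% of all genes were. Vim, vimentin, the filament of mesenchymal cells, had values of 2.37, 2.43 and 2.48 on the FoxF1 arrays, -1.74, -1.83 and -1.77 on the NFI-C2 arrays and -0.04, 0.01 and 0.00 on the wild type arrays. The 3 groups were separate and each tightly grouped, FoxF1 above and NFI-C2 below wild type. Vim was 5.42-fold higher in FoxF1 cells (2.44 ± 0.036 SE, adjusted p = 6.3e-09) and 3.41-fold lower in NFI-C2 cells (-1.77 ± 0.036 SE, adjusted p = 2.4e-07). Between both lines the ratio was 18.5-fold (4.21 ± 0.036 SE, adjusted p = 1.1e-09). With quantile normalization the NFI-C2 difference of Vim was -3.08, or 8.46-fold lower. Des, desmin, the filament of muscle cells, had values of 0.34, 0.59 and 0.36 on the FoxF1 arrays, 0.00, -0.01 and 0.00 on the NFI-C2 arrays and 0.00, 0.00 and 0.00 on the wild type arrays. The other 6 arrays were nearly equal, and FoxF1 arrays lay above them by 0.43 ± 0.062 (SE, adjusted p = 8.2e-04), or 1.35-fold. FoxF1 array 2 was the highest of its group, and the call held without it. With quantile normalization the difference was 0.25 (adjusted p = 9.6e-04).

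The filamins crosslink actin and tie it to integrins, and the LIM proteins sit on stress fibres and focal adhesions. Fhl1, a four-and-a-half LIM protein abundant in striated muscle, showed the largest rise of the 44 genes. Its values were 4.69, 4.84 and 4.83 on the FoxF1 arrays, -0.05, 0.03 and 0.00 on the NFI-C2 arrays and -0.07, -0.12 and -0.06 on the wild type arrays. The NFI-C2 and wild type arrays all lay within 0.15 of each other, and every FoxF1 array lay over 4 log2 units above them. The difference was 4.87 ± 0.045 (SE, adjusted p = 1.1e-09), a 29.3-fold level, with 0.08 in NFI-C2 cells (adjusted p = 0.303). Fhl2, a related coactivator found in heart and at focal adhesions, had values of 0.40, 0.43 and 0.38 on the FoxF1 arrays, -0.38, -0.35 and -0.50 on the NFI-C2 arrays and 0.00, 0.10 and 0.00 on the wild type arrays. The groups did not overlap, with FoxF1 highest and NFI-C2 lowest. The differences were smaller than for Fhl1, 0.37 ± 0.046 (SE, adjusted p = 3.6e-04) in FoxF1 and -0.44 ± 0.046 (SE, adjusted p = 4.5e-04) in NFI-C2 cells, and 0.81 ± 0.046 (SE, adjusted p = 3.7e-06) between both lines. Quantile normalization of the arrays reduced the FoxF1 difference of Fhl2 to 0.19 and ended its call (adjusted p = 0.137), while the NFI-C2 difference became -0.73.

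Flna, filamin A, the general filamin, had values of 0.77, 0.87 and 0.80 on the FoxF1 arrays, -0.29, -0.31 and -0.41 on the NFI-C2 arrays and 0.00, -0.02 and 0.06 on the wild type arrays. The FoxF1 arrays lay above and the NFI-C2 arrays below all wild type arrays. It was 1.75-fold higher in FoxF1 cells (0.80 ± 0.042 SE, adjusted p = 2.8e-06) and 1.27-fold lower in NFI-C2 cells (-0.35 ± 0.042 SE, adjusted p = 9.2e-04). With quantile normalization these differences of Flna were 0.48, or 1.39-fold, and -0.54. Flnc, the muscle filamin, was 0.22 higher in FoxF1 cells (adjusted p = 0.00192). Csrp1 and Csrp2, the cysteine- and glycine-rich LIM proteins of smooth muscle, went the other way, by -0.19 and -0.22 in FoxF1 cells (adjusted p = 3.7e-04 and 0.0105). Csrp2 was also lower in NFI-C2 cells (-0.25, adjusted p = 0.0104). Pdlim1, a PDZ-LIM protein of stress fibres, was the single gene of the 44 that was higher in NFI-C2 cells (0.41, adjusted p = 9.5e-04), and its smaller cluster at the gene on chromosome 19 gave 0.47 (adjusted p = 0.00165). Lasp1, a LIM and SH3 protein of focal adhesions, was lower in NFI-C2 cells (-0.44, adjusted p = 0.00168) and not called in FoxF1 cells (-0.06, adjusted p = 0.541). Pdlim5 was called between both lines alone (-0.17, adjusted p = 0.0436), and Pdlim7 in no comparison.

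**Figure D4:**
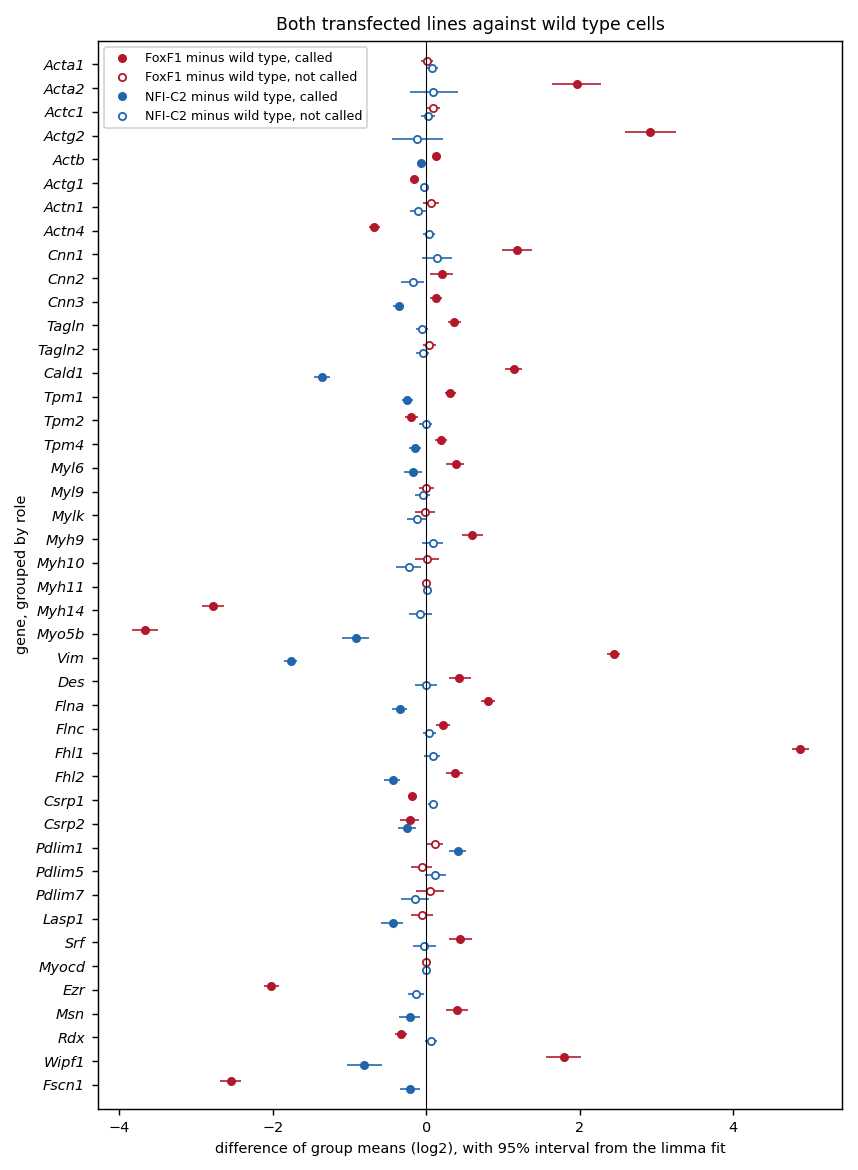
Difference of group means (x axis, log2) for each of the 44 genes (y axis, grouped by role), for FoxF1 minus wild type (red) and NFI-C2 minus wild type (blue), with 95% intervals from the limma fit; filled points were called and open points were not. Red points reach from -3.67 for Myo5b to 4.87 for Fhl1 and blue points from -1.77 for Vim to 0.41 for Pdlim1; both colours share the wild type arrays.

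Of the transcription factors, Srf itself had values of 0.29, 0.40 and 0.43 on the FoxF1 arrays, 0.00, -0.21 and -0.06 on the NFI-C2 arrays and -0.08, 0.02 and -0.13 on the wild type arrays. FoxF1 arrays lay above all others, while NFI-C2 and wild type arrays overlapped. The rise was modest, 0.44 ± 0.065 (SE, adjusted p = 9.9e-04) or 1.35-fold, and the NFI-C2 difference was -0.03 (adjusted p = 0.873). Myocd, myocardin, the cofactor that drives the smooth muscle programme, lay between 0.00 and 0.01 on all 9 arrays, with 8 arrays tied at the lowest value, and no change was detected (adjusted p = 0.962 in FoxF1 and 1 in NFI-C2 cells).

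Of the 5 genes of cortical and bundling proteins tested, 3 were lower in FoxF1 cells, where 19.4% of all genes were. Ezrin, radixin and moesin link the plasma membrane to actin, and the 3 genes did not move together. Ezr, the epithelial member, had values of -2.00, -1.89 and -1.85 on the FoxF1 arrays, 0.01, 0.00 and -0.09 on the NFI-C2 arrays and 0.10, 0.13 and 0.09 on the wild type arrays. FoxF1 arrays lay far under all others, a 4.05-fold lower level (-2.02 ± 0.045 SE, adjusted p = 3.4e-08), or 2.15-fold with quantile normalization (-1.10). The NFI-C2 arrays lay just under the wild type arrays without a call (-0.14 ± 0.045 SE, adjusted p = 0.0738), a difference that was called under 4 of the alternatives tried (adjusted p between 0.00387 and 0.049). Msn, moesin, the member of mesenchymal and blood cells, had values of 0.39, 0.52 and 0.42 on the FoxF1 arrays, -0.16, -0.26 and -0.12 on the NFI-C2 arrays and -0.04, 0.00 and 0.15 on the wild type arrays. It was higher in FoxF1 cells (0.40 ± 0.06 SE, adjusted p = 0.00101), a call lost with quantile normalization (0.18, adjusted p = 0.257). In NFI-C2 cells it was lower (-0.22 ± 0.06 SE, adjusted p = 0.0385), a call near the threshold that was lost when any of 7 arrays was left out. Rdx, radixin, was lower in FoxF1 cells by a smaller amount (-0.33, adjusted p = 1.3e-04).

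Fscn1, fascin, which bundles actin in filopodia, had values of -2.34, -2.22 and -2.42 on the FoxF1 arrays, 0.03, 0.00 and 0.00 on the NFI-C2 arrays and 0.29, 0.24 and 0.14 on the wild type arrays. FoxF1 arrays lay more than 2 log2 units below the rest, a 5.87-fold lower level (-2.55 ± 0.057 SE, adjusted p = 3.7e-08), or 2.75-fold with quantile normalization (-1.46). NFI-C2 arrays lay under the wild type arrays (-0.22 ± 0.057 SE, adjusted p = 0.0331), a call lost when any of 6 arrays was left out (adjusted p up to 0.11), with -0.36 under quantile normalization. Wipf1, the WASP-interacting protein that promotes actin nucleation, had values of 1.63, 1.92 and 1.91 on the FoxF1 arrays, -0.81, -0.68 and -0.85 on the NFI-C2 arrays and 0.18, -0.08 and 0.00 on the wild type arrays. The 3 groups were separate, FoxF1 highest and NFI-C2 lowest. Wipf1 was 3.46-fold higher in FoxF1 cells (1.79 ± 0.099 SE, adjusted p = 4.0e-06) and 1.75-fold lower in NFI-C2 cells (-0.81 ± 0.099 SE, adjusted p = 0.00104). With quantile normalization the differences of Wipf1 were 1.19 and -1.61.

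A wider list of 68 contractile, actin-regulating and Srf cofactor genes outside the 45, of which 67 were tested, had shares of called genes near those of all genes in FoxF1 cells. There 13 were higher (19.4%, against 21.1% of all genes), 18 lower (26.9%, against 19.4%) and 36 not called, with a median difference of 0.007 (0.009 over all genes). The largest rises were Cdc42ep3, a Cdc42 effector, at 1.37, Fhl3, the third four-and-a-half LIM protein, at 1.31, Cfl2, muscle cofilin, at 1.02, and Nes, nestin, at 0.83. The largest falls were the small LIM proteins Crip2 at -5.22 and Crip1 at -3.34, Tnnt2, cardiac troponin T, at -2.83, and Ptrf, the caveolar coat protein cavin 1, at -2.56. Mkl2, which encodes the Srf cofactor MRTF-B, was also lower (-0.97, adjusted p = 6.1e-05). In NFI-C2 cells 7 were higher (10.4%, against 9.18% of all genes), 17 lower (25.4%, against 12.8%) and 43 not called. Cav1, caveolin 1, and Ptrf were each 0.96 higher there, followed by Pdlim3 at 0.83 and Enah, an actin polymerization factor, at 0.67, while Sorbs2 (-1.32), Tnnt2 (-1.18), Pfn2, a profilin (-1.04), and Sorbs3 (-0.94) fell most. Between both lines 16 were higher in FoxF1 cells (23.9%, the share over all genes), 18 lower (26.9%, against 19.8%) and 33 not called.

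Genes of cell types moved with these groups, as measured on the same arrays. In FoxF1 cells 21.1% of all genes were called higher and 19.4% lower. Of 12 mammary epithelial markers, 10 were lower and none higher in FoxF1 cells, led by Tacstd1, the older symbol of Epcam (-6.58), the splicing factor gene Rbm35a, now Esrp1 (-6.35), E-cadherin Cdh1 (-5.82) and keratin Krt8 (-5.58). The mean of the list lay between -2.7 and -2.5 on FoxF1 arrays, 0.03 and 0.06 on NFI-C2 arrays and 0.86 and 0.90 on wild type arrays. A list of 12 myoepithelial and basal genes, which shares Acta2, Cnn1, Myh11, Mylk and Tagln with the 45, had 3 higher and 6 lower. The 3 were Acta2, Cnn1 and Tagln, while the basal keratins Krt5 (-7.35), Krt17 (-6.78) and Krt14 (-5.59) and P-cadherin Cdh3 (-3.54) fell. Of 9 fibroblast genes tested, 6 were higher and none lower in FoxF1 cells, led by Pdgfrb (3.69), S100a4 (3.35), Col3a1 (2.32) and Pdgfra (1.28). The mean of the fibroblast list lay between 1.07 and 1.49 on FoxF1 arrays, -0.21 and -0.17 on NFI-C2 arrays and -0.12 and -0.07 on wild type arrays.

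Lists of other cell types were short, and nothing is read from their counts, since 21.1% of all genes were called higher and 19.4% lower in FoxF1 cells. Of 8 pericyte and endothelial genes 1 was higher (Kdr, 0.30) and 1 lower (Pecam1, -1.40). Of 7 striated muscle genes tested Tnnt2 alone was called, lower, and of 4 immune genes Cd68 alone (0.36, adjusted p = 0.0474). In NFI-C2 cells 9.18% of all genes were called higher and 12.8% lower. The epithelial list had 1 higher and 6 lower there, the basal list 3 higher and none lower, and the fibroblast list 1 of each. The part of these cell type genes in the results above was not tested, and because the values are centred, none of the markers can be said to be present or absent. In bulk RNA, a change in the number of cells of a type and a change of RNA per cell cannot be told apart.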

How the data were processed

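HC11 RNA was run on 9 Affymetrix Mouse Gene ST arrays, 1 culture per array. The labels name Trizol and the methods the GenElute kit for the extraction. The authors deposited log2 values per transcript cluster, made with RMA per the labels, with no version given. In all 28815 clusters the median over the 9 arrays is 0. In 8566 clusters 2 or more arrays tie at the lowest value, and ties lower the spread within a group. A deposited sheet of the authors' p-values was not used. Clusters with 1 gene symbol were kept, per gene the one with most probes, and genes with 9 equal values were left out. Cluster chromosomes are from the files' own annotation.

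Group means were compared with limma 3.58.1 in R 4.3.3, in 1 fit of 3 groups with moderated variances (residual degrees of freedom 6, prior 1.31) and two-sided tests, with Benjamini-Hochberg adjustment over 17995 genes and a threshold of 0.05. Precision is limited by the number of arrays, and p-values measure the spread between cultures, not between independently made lines. Tables were read with pandas 2.3.3 in Python 3.11.15, and promoters came from RefSeq (GRCm38.p6). Genes were given in full when called with a 1.5-fold change in any comparison, or when they were Acta2, Tagln, Cnn1, Myh11, Des, Myocd or Srf, and up to 4 genes per direction of other lists were named. Mkl2 was named after its value was seen. The 45 genes and the lists were chosen with earlier results of these data known. Some list genes were found under older symbols. Alternatives covered scaling, the variance model, the choice of genes, clusters and values, the fold threshold, a replicate block and each array left out.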

Additional observations from a re-analysis of the deposited data

How the results depend on the processing

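Over the 21 genes given in full and 3 comparisons, 1380 values were recomputed under alternatives. Of these 1338 stayed called or stayed uncalled, 37 lost a call, 5 gained one and 0 called values reversed direction. Direction was not compared where a value was called neither before nor after. A trend with robust moderation changed no call of these genes. Subtracting array medians, the mean of all clusters of a gene, and the other deposited value table changed none either, but could hardly do so. The median of every array was 0.0, none of these genes had a second cluster, and the value tables differed by at most 5.0e-08. Values under these settings are nevertheless among the 1338. Tested against a 1.5-fold change instead of 0, 12 of the 44 genes were called for FoxF1 and 2 for NFI-C2 against wild type. Between FoxF1 and NFI-C2 cells 14 were called. Among the wider contractile list the calls were 10, 5 and 13, in the same order. Shares over all genes are not given here for this test or the counts that follow, apart from the calls with quantile normalization. Nothing is thus read from these counts about the 44 genes against all genes. Of the 4 genes at least 1.5-fold lower in NFI-C2 cells, 2 passed 2-fold, and with quantile normalization 7 genes passed 1.5-fold. That normalization gave 15 higher and 10 lower calls for FoxF1 in place of 21 and 10. It alone moved called log2 differences of the genes given in full by over 1.5 times. It makes the spread of all arrays equal, which the deposited arrays do not have. On values centred per gene this tends to shrink FoxF1 differences and enlarge NFI-C2 differences. Leaving out 1 array at a time gave 29 to 31 calls for FoxF1, 11 to 15 for NFI-C2 (16 with all arrays) and 33 to 35 between both lines. With the 1.5-fold criterion these were 13 to 14, 4 to 4 and 14 to 15, and for the wider list 30 to 33, 22 to 26 and 31 to 35. Fewer arrays enter these fits. Replicate numbers are shared in the labels. Same-numbered arrays correlated at -0.004 to 0.18 in their deviations, not over 0.1 in every pair, and differently numbered arrays at -0.194 to 0.099. The replicates were taken as numbers only, and whether a number stands for a shared batch was not tested. With a replicate block the calls were 30, 14 and 34, and Msn in NFI-C2 cells was lost (adjusted p = 0.0535). Reading each gene from the cluster on its own chromosome, an alternative chosen after seeing the data, gave 31, 15 and 35 calls. A scan date block was not run, because the files give no date.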
